A study of Arabidopsis thaliana with 46 samples.

Results

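Affymetrix numbered the probe sets of its Arabidopsis array in runs, and one of them covers mitochondrial genes. It holds 31 consecutive id numbers and ends just before the probe set of the plastid gene psaC. All 31 probe sets with such a number, whatever their suffix, were taken from the 22810 of the table. The array annotation names 10 of the 31. It gives 7 of them a gene of the mitochondrial genome, namely nad4L, ccb382, ccb203, nad7, matR, orfX and nad4, and 3 a locus of chromosome 2, namely AT2G07751, AT2G07674 and AT2G07776. The other 21 carry no gene name in that annotation and are called here by their id, or in 1 case the first probe set of the block. The suffix s_at, which Affymetrix gives to probes that match more than 1 transcript, stands on 8 of the 31.

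Plant mitochondria keep a small genome for a few subunits of the respiratory chain and the ATP synthase, parts of the cytochrome c maturation machinery, ribosomal parts and a maturase. Most other mitochondrial proteins are made from nuclear genes and imported. Stable poly(A) tails are rare on plant mitochondrial RNA, where polyadenylation marks transcripts for decay. In Arabidopsis a large copy of mitochondrial DNA also lies on nuclear chromosome 2, so that a probe for a mitochondrial gene can match a nuclear locus too. Per the labels, the RNA was labelled with a 3′ in vitro transcription kit. Such kits prime from poly(A), and a value here may therefore count tailed RNA of a gene and not its whole transcript pool.

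The study measured shoots of 14-day-old seedlings on 46 arrays in 16 groups. All were raised at 22 °C with 16 h of light and 8 h of dark per day. The wild type was Col-0, and the lines SALK_016954, SALK_136009 and SALK_070989 carry T-DNA insertions in WRKY1, a transcription factor gene. Steady groups on full MS medium exist for the 3 insertion lines and Col-0, and the remaining groups compare SALK_070989 with Col-0 only. The nitrogen experiment moved seedlings from 1 mM KNO3 for 2 h to 20 mM each of KNO3 and NH4NO3, called N-rich, or to N-absent medium holding 20 mM KCl. For the dark groups foil covered the plates from an age of 13 days until harvest on the next day, and the light groups stayed in the daily cycle. In the combined experiment the shoots are labelled dark N-rich or dark N-absent, and no time or medium of its own is given for it. The Col-0 dark N-rich and dark N-absent groups have 2 arrays each, and the other 14 groups have 3. The labels do not say whether replicates came from separate plates or harvests, so p-values measure the spread between arrays, which may be technical.

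The check of WRKY1 (AT2G04880) matched the labels. It lay at 2.23 to 3.26 in SALK_070989, 2.23 to 2.31 in SALK_016954 and 3.93 to 4.45 in SALK_136009, against 6.57 to 7.84 in Col-0 (log2 values). Of 11 shoot markers 3 could be found by name (RCA, LHCB4.1 and PRK), and their mean level was 11.51 to 11.72 in the dark arrays, against 13.09 to 13.24 in the light arrays. All 3 passed as lower in the dark, with a median difference of -1.49 in SALK_070989 and -1.48 in Col-0. In the combined experiment the mean level was 10.65 to 10.97 in SALK_070989 and 10.28 to 10.94 in Col-0. Of 11 root markers 1 could be found, EXPA7, a root hair expansin. It stayed at or below 2.42 except in SALK_070989 dark N-absent (2.44 to 3.17) and SALK_070989 dark N-rich (2.85 to 3.29). Array medians were 4.29 to 4.34 in the dark groups, and 4.54 to 4.58 in the light groups. GAPDH probe sets at the 3′ end exceeded those at the 5′ end by the most in SALK_070989 steady array 3 (3.02) and Col-0 dark N-absent array 1 (2.91). Apart from a further quantile normalization of the arrays, given at the end, what these differences contribute to the values below was not tested.

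Most of the block gave no signal in shoots. The table's lowest value is 2.23 and its highest is 14.63. In all 46 arrays 6 of the 31 probe sets stayed within 0.01 of that lowest value (244905_at, 244908_at, 244913_at, 244915_s_at, 244917_at and 244930_at), which is 19.4% of the block, against 5.71% of all probe sets. A further 16 were at the lowest value in some arrays, and 9 in none. With a margin of 0.1 instead of 0.01, 9 probe sets were at the lowest value in every array.

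A filter for testing kept probe sets with a group mean above 4 in at least 1 group. It kept 8 of the 31 (25.8%), against 62.8% of all probe sets. The 8 were the first probe set of the block, 244903_at, 244906_at, 244912_at (ccb382), 244920_s_at (AT2G07751), 244921_s_at, 244928_s_at (orfX) and 244929_at (nad4). Of these, the first probe set, 244906_at and orfX passed only because 1 or more of the groups kept in darkness exceed 4, as did 6.07% of all kept probe sets. For 244906_at Col-0 dark (4.14) was among these groups. The first probe set passed through groups of the combined experiment (up to 4.39), and orfX through Col-0 dark N-absent alone (4.15). Calls of these 3 that rest on the groups that kept them are in part fixed by the filter.

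**Figure D1:**
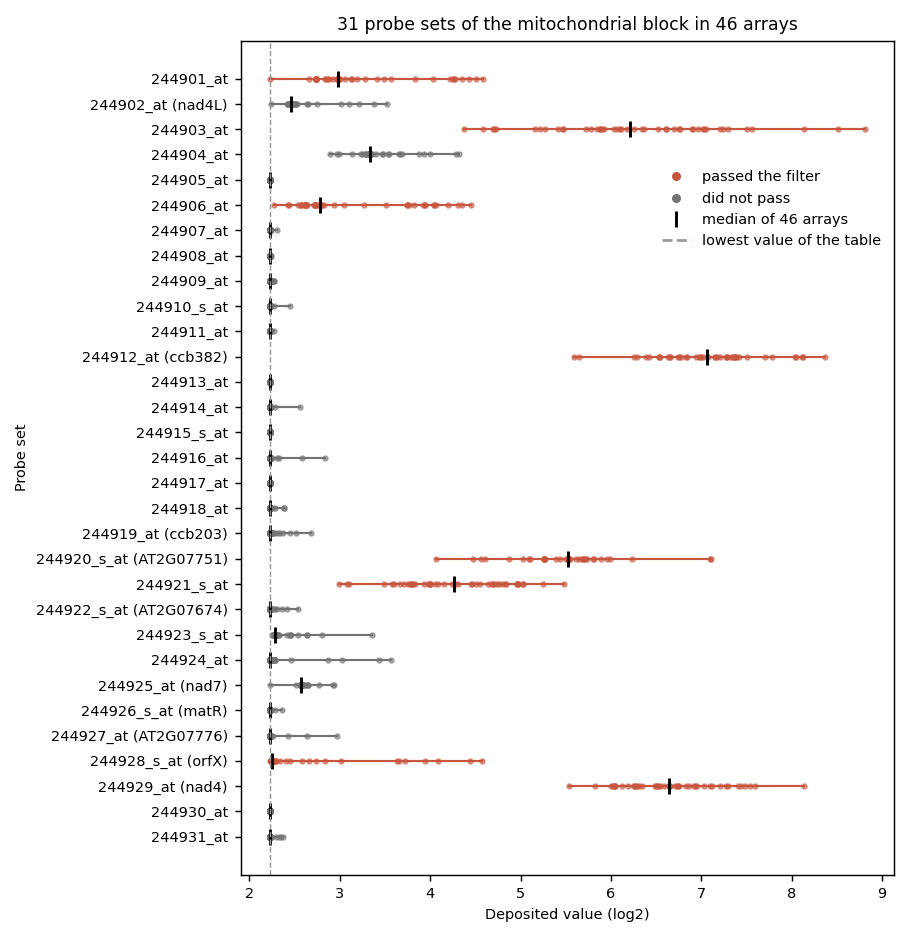
Deposited log2 value (horizontal) of each of the 31 probe sets (vertical) in 46 arrays, 1 point per array, with a line over the range and a tick at the median. Red probe sets passed the filter, grey ones did not, and the dashed line is the table's lowest value of 2.23; most grey probe sets lie on it.

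The 23 probe sets that did not pass the filter include 4 named mitochondrial genes and 2 loci of chromosome 2. The complex I subunit nad4L (244902_at) ranged over 2.24 to 3.52 with a median of 2.46, and the complex I subunit nad7 (244925_at) over 2.23 to 2.94 with a median of 2.57. The maturase matR (244926_s_at) was at the lowest value in 44 of 46 arrays. The cytochrome c maturation gene ccb203 (244919_at), called ccmFN2 in RefSeq, was at it in 35. AT2G07674 (244922_s_at) was at it in 40 arrays and AT2G07776 (244927_at) in 42. Among the unnamed ones 244904_at was measured above the lowest value in every array, at 2.89 to 4.31 with a median of 3.34. Next in height came 244924_at, whose 3.57 in a Col-0 dark array was far above its median of 2.23. The remaining unnamed probe set with a value above 3 was 244923_s_at, at 3.35 in SALK_070989 steady array 3, against a median of 2.29. That array also had the largest gap between 3′ and 5′ GAPDH signals.

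Some probe sets have 1 value in many arrays. AT2G07751 (244920_s_at) has the value 5.53 in 13 of the 46 arrays, identical to the third decimal, among them all 3 SALK_070989 steady arrays. For orfX (244928_s_at) the value 2.25 recurs in 13 arrays, for 244904_at 3.34 in 20 arrays, and for nad7 (244925_at) 2.57 in 32. Of all kept probe sets 807 (5.65%) have some value in 10 or more arrays. An SD of 0 over such arrays is no measure of precision, and a difference against a group that sits there is not well measured. Where the recurring value lies near the table's lowest, the difference may understate the change.

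The best measured members with a name were ccb382 and nad4. In RefSeq ccb382 (244912_at) is ccmFN1, part of the machinery that attaches haem to cytochrome c, and its median was 7.07 over the arrays, with a range of 5.59 to 8.37. The gene nad4 encodes a membrane subunit of complex I. Its probe set 244929_at had a median of 6.64 and a range of 5.53 to 8.13. The unnamed 244903_at had a median of 6.21 and the widest range of the 8, 4.38 to 8.81. Levels of different probe sets are not compared here, since each probe set has its own response.

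The chromosome 2 locus AT2G07751 had a median of 5.53 and a range of 4.06 to 7.10. In the TAIR10.1 gene table its length equals that of the mitochondrial nad3, a complex I subunit, and it stands next to AT2G07674, another locus of the block. Its probe set 244920_s_at carries the s_at suffix. Whether the signal came from the mitochondrial gene or the nuclear copy cannot be told apart from these values. The same limit holds for 244921_s_at, which has no name in the annotation.

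In the dark, Col-0 shoots had more signal than in the light at all 8 tested members. The differences ran from 0.91 to 2.16 on the log2 scale, and all 8 passed limma's test, where 38.1% of all tested probe sets passed as higher in the dark. All 5 members that the filter kept without the dark groups were among the 8, with a median difference of 1.65, beside 37.1% of the other probe sets so kept. Over all tested probe sets the median difference was 0.00. In these bulk shoots a change in the share of cell types and a change in RNA per cell cannot be told apart.

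The largest difference was that of AT2G07751. In Col-0 its probe set 244920_s_at had 6.24, 7.10 and 7.10 in the dark arrays, against 4.47, 4.61 and 4.88 in the light arrays. Each dark array exceeded each light array by more than 1 log2 unit, and the difference was 2.16 ± 0.27 (SE, adjusted p = 8.3e-09, limma). The neighbouring 244921_s_at had 4.55, 5.25 and 5.48 in Col-0 dark arrays, against 3.10, 3.08 and 3.71 in Col-0 light arrays. Its groups did not overlap either, with a difference of 1.80 ± 0.33 (adjusted p = 6.8e-06, limma).

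The cytochrome c maturation gene ccb382 also rose in the dark in Col-0. Its probe set 244912_at had 8.37, 8.13 and 8.03 in the dark arrays, against 6.26, 6.78 and 6.54 in the light arrays. These Col-0 dark arrays hold the highest group mean of the gene in the whole series, 8.18 ± 0.17 (SD, n = 3). The dark minus light difference was 1.65 ± 0.31 (SE, adjusted p = 1.0e-05, limma).

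The complex I subunit nad4 differed least. Its probe set 244929_at had 6.93, 6.75 and 6.73 in Col-0 dark arrays, against 6.12, 5.53 and 6.04 in Col-0 light arrays. The groups stood apart, with a difference of 0.91 ± 0.23 (adjusted p = 0.00061, limma). Set against the steady groups, the nad4 difference in the dark was -0.24 in Col-0, as given further on.

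The product of orfX, called mttB in RefSeq, resembles the TatC protein of the twin-arginine translocase. Its probe set 244928_s_at had 2.66, 3.95 and 4.09 in Col-0 dark arrays, against 2.25, 2.28 and 2.25 in Col-0 light arrays. The light arrays lie near the table's lowest value, so the difference of 1.31 ± 0.36 (adjusted p = 0.0015, limma) is a lower bound. The first dark array stayed far below the other 2.

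The 3 unnamed members that remain moved the same way in Col-0. Probe set 244906_at had 4.06, 4.31 and 4.05 in the dark arrays, against 2.73, 2.73 and 2.57 in the light arrays, a difference of 1.46 ± 0.17 (adjusted p = 8.4e-10, limma). Probe set 244903_at had 6.70, 7.24 and 7.03 in the dark arrays, against 5.42, 5.47 and 5.46 in the light arrays, with a difference of 1.54 ± 0.56 (adjusted p = 0.012, limma). Neither probe set had overlapping groups. For the first probe set of the block the values were 4.26, 3.13 and 3.41 in the dark arrays, against 2.66, 2.23 and 2.73 in the light arrays, a difference of 1.06 ± 0.24 (adjusted p = 0.00017, limma). Dark array 1 stood highest there, and the smallest dark value still exceeded the largest light value.

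**Figure D2:**
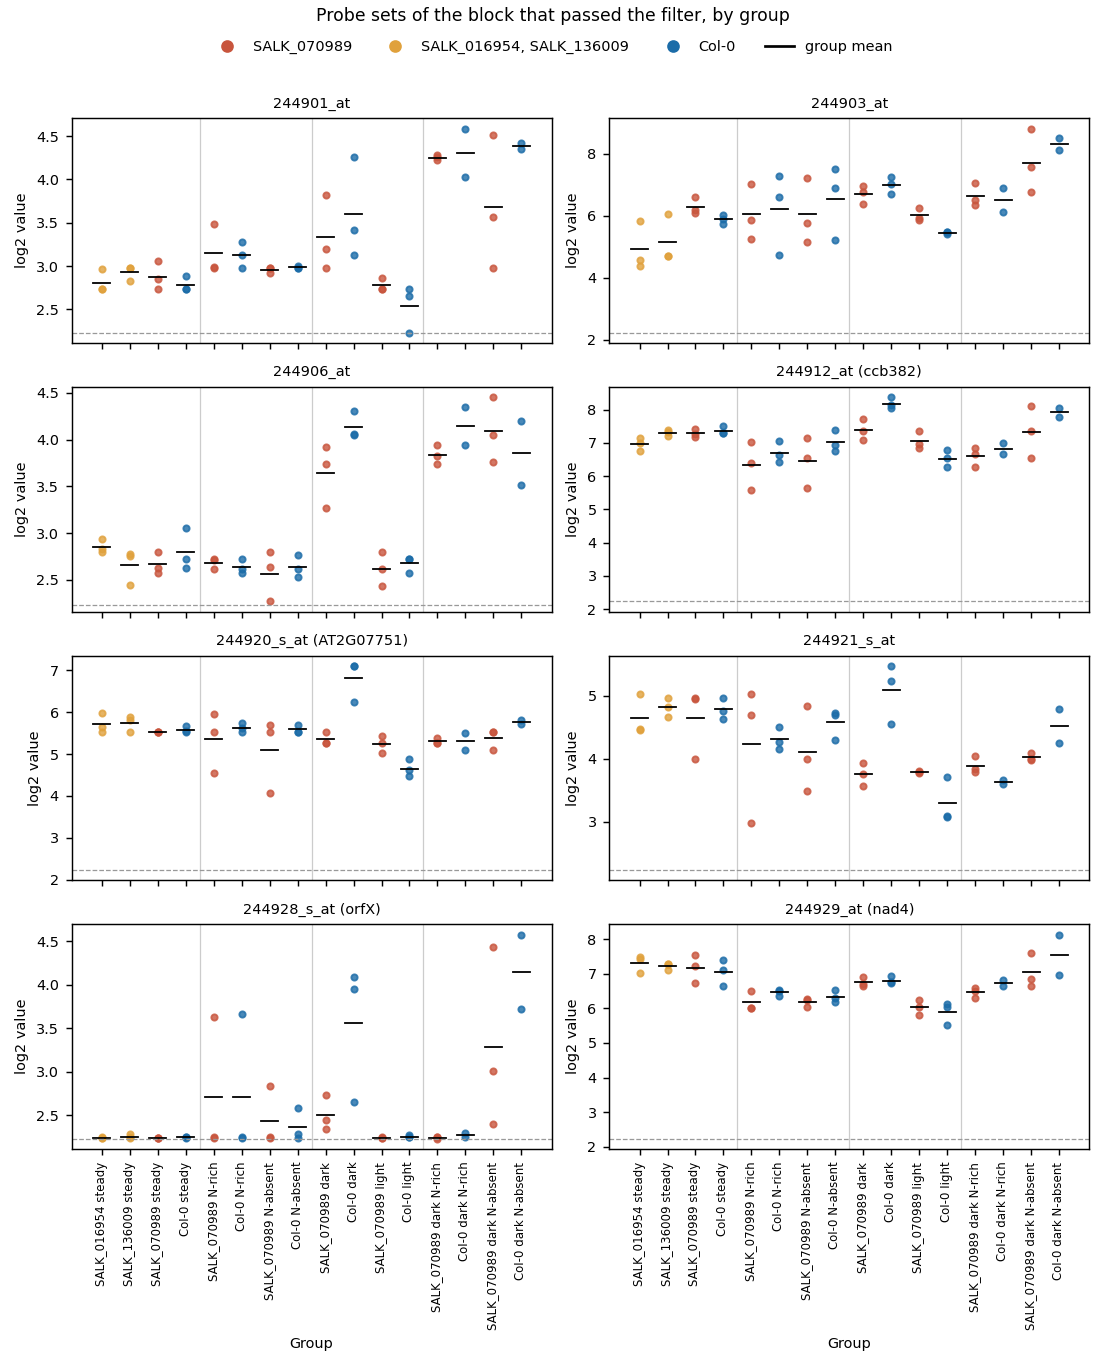
Log2 value (vertical, 1 scale per panel) of the 8 tested members in the 16 groups (horizontal), with a point per array and a bar at the group mean; vertical lines separate the steady, nitrogen, light and combined experiments, and the dashed line is the table's lowest value. The 3 Col-0 dark arrays of AT2G07751 at 6.24 to 7.10 lie above every other array of that panel.

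SALK_070989 shoots showed fewer such differences. The test passed 3 of 8 members as higher in the dark, beside 37.5% of all tested probe sets. The 3 were 244906_at, the first probe set of the block and nad4, and nad4 was the only 1 of the 5 that the filter kept without the dark groups, whose median difference was 0.32, against 0.01 for all tested probe sets. Probe set 244906_at had 3.92, 3.74 and 3.26 in SALK_070989 dark arrays, against 2.43, 2.62 and 2.79 in SALK_070989 light arrays, a difference of 1.03 ± 0.17 (adjusted p = 1.3e-06, limma). For nad4 the arrays of 244929_at gave 6.64, 6.92 and 6.71 in the dark, against 6.05, 6.25 and 5.82 in the light, a difference of 0.71 ± 0.23 (adjusted p = 0.0058, limma). Both pairs of groups stood apart.

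The first probe set of the block had 3.83, 2.98 and 3.20 in SALK_070989 dark arrays, against 2.73, 2.73 and 2.87 in SALK_070989 light arrays. Its difference of 0.56 ± 0.24 (adjusted p = 0.038, limma) rested on single arrays. Without dark array 1 it was 0.31 (adjusted p = 0.29), and without light array 1 or light array 2 it was 0.53 (adjusted p = 0.081). The fit to the compared groups alone gave adjusted p = 0.06, and that without the filter 0.067. The members that did not pass in SALK_070989 had differences of -0.04 to 0.68.

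The response to darkness differed between the genotypes at 2 of the 8 members, both lower in SALK_070989, where 1.38% of all tested probe sets passed as lower. For AT2G07751 the probe set 244920_s_at had 5.26, 5.53 and 5.27 in SALK_070989 dark arrays, against 5.44, 5.03 and 5.26 in SALK_070989 light arrays. These groups overlap, with a difference of 0.11 ± 0.27, and the difference of differences to Col-0 was -2.05 ± 0.39 (adjusted p = 0.0023, limma). It passed without any single array too, at -2.34 to -1.90. Part of it lies in the light groups, where SALK_070989 was 0.59 ± 0.27 above Col-0 without passing (adjusted p = 0.26, limma). At 244921_s_at, treated next, SALK_070989 light arrays were 0.50 ± 0.33 above Col-0 light arrays, also without passing (adjusted p = 0.47, limma).

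For 244921_s_at the SALK_070989 arrays had 3.57, 3.76 and 3.93 in the dark, against 3.81, 3.78 and 3.79 in the light. The dark minus light difference there was -0.04 ± 0.33, and the difference of differences to Col-0 was -1.84 ± 0.46 (adjusted p = 0.025, limma). That call was lost without Col-0 dark array 2 (-1.76, adjusted p = 0.058) or 3 (-1.64, adjusted p = 0.076), SALK_070989 dark array 1 (-1.75, adjusted p = 0.06), Col-0 light array 1 (-1.74, adjusted p = 0.077) or 2 (-1.73, adjusted p = 0.067), or SALK_070989 light array 1 (-1.83, adjusted p = 0.05). The other 6 members had differences of differences of -1.33 to -0.19, and none of them passed. The size of -1.33 belonged to ccb382 (± 0.44, adjusted p = 0.1, limma).

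**Figure D3:**
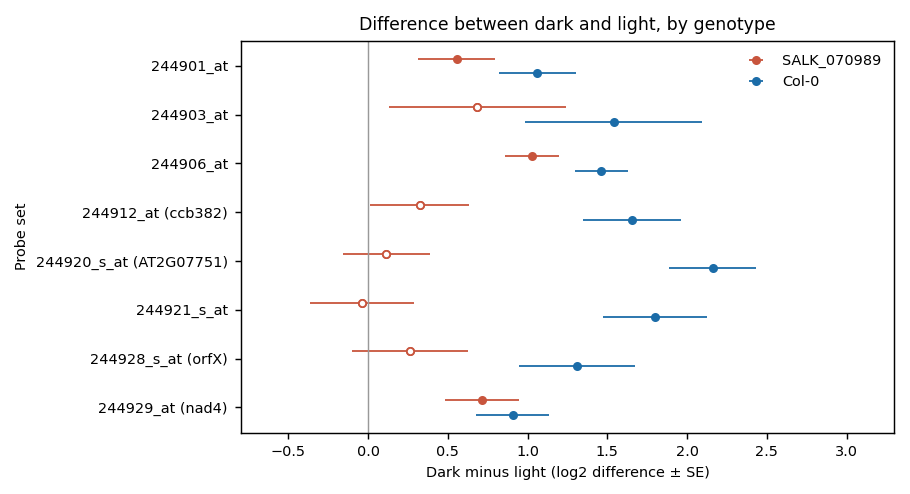
Dark minus light difference in log2 units (horizontal) with its standard error for the 8 tested members (vertical), SALK_070989 in red above Col-0 in blue, filled where limma's adjusted p passed and open where it did not. Col-0 points lie at 0.91 to 2.16 and SALK_070989 points at -0.04 to 1.03.

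Compared directly in the dark, SALK_070989 was lower than Col-0 at the same 2 probe sets, where 1.15% of all tested probe sets passed as lower. The 244920_s_at mean was 5.35 ± 0.15 in SALK_070989 dark arrays and 6.81 ± 0.50 in Col-0 dark arrays (SD, n = 3 each), a difference of -1.46 ± 0.27 (SE, adjusted p = 0.0014, limma). The highest SALK_070989 array, 5.53, lay below the lowest Col-0 array, 6.24. The 244921_s_at mean was 3.75 ± 0.18 in SALK_070989 dark arrays and 5.09 ± 0.48 in Col-0 dark arrays (SD, n = 3 each), a difference of -1.34 ± 0.33 (SE, adjusted p = 0.016, limma). An exact permutation test of 3 against 3 arrays cannot go below p = 0.1, and calls therefore rest on the spread shared over all groups.

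Fitted on the 6 dark arrays alone, neither difference passed (adjusted p = 0.1 for AT2G07751 and 0.11 for 244921_s_at, limma). With all groups in the fit, 244921_s_at lost its call without Col-0 dark array 2 (-1.26, adjusted p = 0.069), Col-0 dark array 3 (-1.14, adjusted p = 0.094) or SALK_070989 dark array 1 (-1.25, adjusted p = 0.082). Among the members that did not pass, ccb382 (244912_at) had 7.36, 7.71 and 7.07 in SALK_070989 dark arrays, against 8.37, 8.13 and 8.03 in Col-0 dark arrays, a difference of -0.80 ± 0.31 (adjusted p = 0.2, limma). The SALK_070989 arrays of orfX (244928_s_at) had 2.34, 2.74 and 2.45, against 2.66, 3.95 and 4.09 in Col-0, a difference of -1.06 ± 0.36 (adjusted p = 0.13, limma). For nad4 the difference was -0.05 ± 0.23.

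The light controls themselves did not match the steady groups, although the labels give both the same growth regime. In Col-0, 3 of 8 members were lower in the light arrays than in the steady arrays, beside 1.85% of all tested probe sets. For 244921_s_at the Col-0 light arrays had 3.10, 3.08 and 3.71, against 4.76, 4.64 and 4.97 in the steady arrays, a difference of -1.50 ± 0.33 (adjusted p = 0.0042, limma). For nad4 (244929_at) they had 6.12, 5.53 and 6.04, against 7.09, 6.64 and 7.40, a difference of -1.15 ± 0.23 (adjusted p = 0.002, limma). Light and steady arrays did not overlap at either probe set.

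AT2G07751 (244920_s_at) had 4.47, 4.61 and 4.88 in Col-0 light arrays, against 5.68, 5.53 and 5.54 in Col-0 steady arrays. The difference of -0.93 ± 0.27 (adjusted p = 0.043, limma) no longer passed when any 1 of the 6 arrays was left out (-1.04 to -0.84, adjusted p 0.069 to 0.15), nor without the filter (adjusted p = 0.078). In SALK_070989 only nad4 passed, with 244929_at values of 6.05, 6.25 and 5.82 in light arrays, against 6.75, 7.54 and 7.21 in steady arrays. Its difference was -1.12 ± 0.23 (adjusted p = 0.0035, limma), beside 0.728% of all tested probe sets lower. The 2 nad4 calls did not hold in fits of the compared groups alone (adjusted p = 0.09 in Col-0 and 0.19 in SALK_070989). Steady and light groups belong to different experiments, and experiment and condition cannot be told apart.

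Darkness was also set against the steady groups, a comparison added after the data were seen. In Col-0 5 of the 8 members passed as higher, beside 38.3% of all tested probe sets higher. They include the 3 kept only through groups in darkness, and 2 of the 5 that the filter kept without those, AT2G07751 and ccb382. AT2G07751 was 1.23 ± 0.27 higher in Col-0 dark than in Col-0 steady arrays (adjusted p = 0.00013, limma), and ccb382 0.82 ± 0.31 (adjusted p = 0.016, limma). The difference of 244921_s_at was 0.30 ± 0.33, and that of nad4 turned negative, -0.24 ± 0.23, without passing.

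In SALK_070989 the dark arrays were higher than the steady arrays at 244906_at (0.98 ± 0.17, adjusted p = 3.0e-06, limma), where 39.2% of all tested probe sets passed as higher. They were lower at 244921_s_at (-0.89 ± 0.33, adjusted p = 0.014, limma), where 36.1% passed as lower. The genotype difference in this response remained past the threshold for AT2G07751 (-1.41 ± 0.39, adjusted p = 0.019, limma), beside 3.58% of all tested probe sets lower. For 244921_s_at it was -1.19 ± 0.46 (adjusted p = 0.12).

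Outside the dark groups no member passed between an insertion line and Col-0. In the steady groups 0 of 8 passed in SALK_016954, SALK_136009 or SALK_070989 against Col-0, where 3.28%, 8.48% and 12.5% of all tested probe sets passed in either direction. The same count of 0 of 8 held for SALK_070989 against Col-0 in N-rich (2.75%), N-absent (8.02%) and light (5.61%) shoots. Limma with a trended, robust prior also called 0 in each of these 6. At an unadjusted p under 0.05 there was 1 member in the light groups and 0 in the others. The member differences spanned -0.95 to 0.59 over these 6 comparisons.

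In the combined experiment 0 of 8 passed between SALK_070989 and Col-0, in dark N-rich shoots (5.19% of all tested) as in dark N-absent shoots (20.1%), and 0 with the trended, robust prior. At an unadjusted p under 0.05 there were 0 members in dark N-rich and 2 in dark N-absent shoots. The dark N-absent count depended on single arrays, with 1 member passing without Col-0 dark N-absent array 2 and 3 without SALK_070989 dark N-absent array 1. Of the 3 shoot markers 2 were higher in SALK_070989 dark N-absent shoots, by 0.49 for RCA and 0.87 for PRK. Over all 7 conditions in which both genotypes were grown, the mean SALK_070989 minus Col-0 difference passed for AT2G07751 alone, at -0.30 ± 0.11 (adjusted p = 0.044, limma), beside 21.9% of all tested probe sets in either direction. Leaving out 1 array ended that call for 24 of 40 arrays (-0.34 to -0.22), and without the filter adjusted p was 0.082.

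In the nitrogen experiment no member passed between the media. After 2 h on N-rich medium 0 of 8 members differed from N-absent shoots in either genotype, beside 18.8% of all tested probe sets in SALK_070989 and 25.8% in Col-0. An unadjusted p under 0.05 was also reached by 0 members in each genotype, as with the trended, robust prior. The replicate block also gave 0 in each genotype. The differences spanned -0.11 to 0.27 in SALK_070989 and -0.33 to 0.35 in Col-0. The difference of differences passed for 0 of 8 (0.182% of all tested), and for 0 at an unadjusted p under 0.05.

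Within the nitrogen experiment some members stood high in array 1. This array was the highest of its group in 4 of 4 groups for 244903_at (7.01 to 7.50, against 4.73 to 6.90 in arrays 2 and 3), for ccb382 (7.02 to 7.39, against 5.59 to 6.94) and for orfX (2.58 to 3.66, against 2.24 to 2.28). SALK_070989 array 2 was low for AT2G07751 (244920_s_at), with 4.56 on N-rich and 4.06 on N-absent medium, against 5.53 to 5.96 in arrays 1 and 3. These SALK_070989 arrays 2 also had the lowest mean of the 8 members in the series, 4.03 on N-rich and 4.02 on N-absent medium. The labels do not say what the array numbers stand for, and over the whole series the deviations of same-numbered arrays correlated above 0.1 in 14 of 67 pairs, 10 of them among the 18 of the nitrogen experiment.

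**Figure D4:**
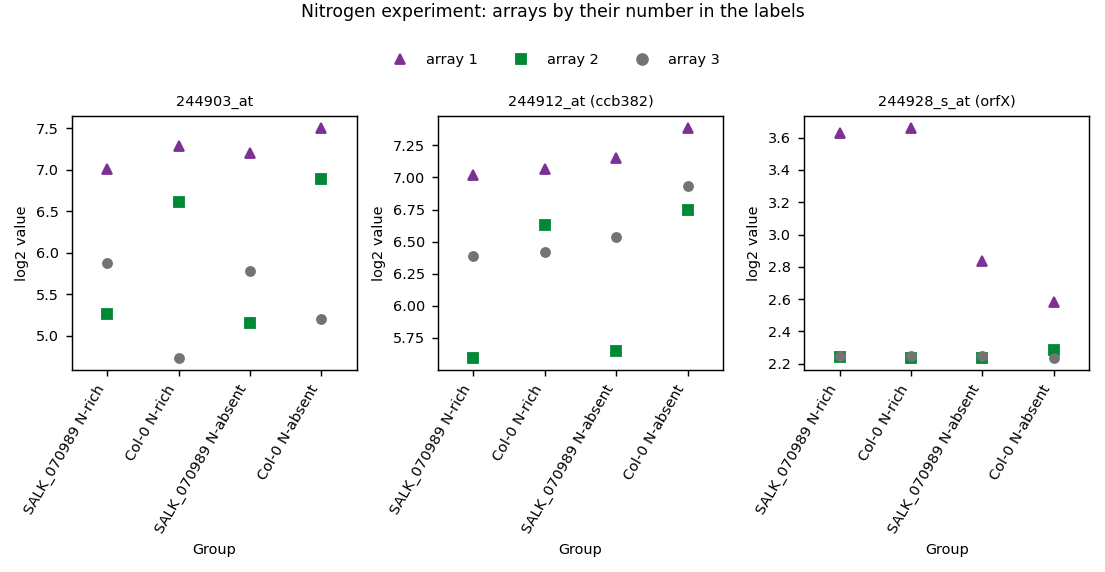
Log2 value (vertical) of 244903_at, ccb382 and orfX in the 4 groups of the nitrogen experiment (horizontal), with the symbol giving the array number in the labels. In each panel array 1 (triangles) is the highest of its group in 4 of 4 groups.

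Nitrogen in the dark went with lower values at some members. In Col-0, 3 of 8 were lower in dark N-rich than in dark N-absent shoots, beside 9.6% of all tested probe sets. They were orfX, which the filter kept through the Col-0 dark N-absent group alone, and 2 of the 5 members kept without groups in darkness. For orfX (244928_s_at) the values were 2.25 and 2.30 in dark N-rich arrays, against 4.58 and 3.73 in dark N-absent arrays. The difference of -1.88 ± 0.45 (adjusted p = 0.002, limma) has its low side near the table's lowest value. For ccb382 (244912_at) the values were 6.65 and 6.99 in dark N-rich arrays, against 8.04 and 7.79 in dark N-absent arrays, a difference of -1.10 ± 0.38 (adjusted p = 0.034, limma). For nad4 (244929_at) they were 6.64 and 6.83, against 8.13 and 6.95, a difference of -0.81 ± 0.28 (adjusted p = 0.037, limma). At each of the 3 probe sets the dark N-rich arrays lay below the dark N-absent arrays. The groups did not overlap at 6 of the 8 members, members that did not pass among them. The share of all probe sets without overlap was not computed, and with 2 arrays a group no support is drawn from it. In the same comparison 2 of the 3 shoot markers were higher in Col-0 dark N-rich shoots, RCA by 0.57 and PRK by 0.47, and their part in the result was not tested.

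These calls rest on 2 arrays per group. Without dark N-absent array 1, the array with the second largest gap between 3′ and 5′ GAPDH signals, none passed, and the differences were -1.45 for orfX, -0.97 for ccb382 and -0.22 for nad4. Without dark N-absent array 2 that of nad4 was -1.40, and ccb382 had adjusted p = 0.07. Without dark N-rich array 1 or array 2 only orfX passed (-1.85 and -1.90). Fitted on these 4 arrays alone, none passed (adjusted p = 0.065 for orfX, 0.064 for ccb382 and 0.34 for nad4). Without the filter ccb382 (adjusted p = 0.066) and nad4 (0.067) did not pass.

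In SALK_070989, 1 of 8 passed as lower in dark N-rich shoots, beside 15% of all tested probe sets. It was orfX (244928_s_at), with 2.25, 2.25 and 2.23 in dark N-rich arrays, against 4.44, 3.01 and 2.41 in dark N-absent arrays. The difference was -1.04 ± 0.36 (adjusted p = 0.029, limma). It was -0.47 (adjusted p = 0.37) without dark N-absent array 1, and with any 1 dark N-rich array left out it stood at -1.05 to -1.04 (adjusted p 0.058 to 0.068). On the compared arrays alone adjusted p was 0.15, and without the filter it was 0.058. Of the shoot markers PRK was lower in SALK_070989 dark N-rich shoots (-0.37). Without dark N-absent array 3, 3 members passed.

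The nitrogen response in the dark did not differ between the genotypes at any of the 8 members past the threshold (9.54% of all tested passed), with 1 at an unadjusted p under 0.05 and 0 with the trended, robust prior. Without SALK_070989 dark N-absent array 1, 1 member passed. The shoot markers RCA (-0.69) and PRK (-0.84) did differ in this response. The first probe set of the block had 4.22 to 4.28 in SALK_070989 dark N-rich arrays and 2.98 to 4.51 in SALK_070989 dark N-absent arrays. In Col-0 it had 4.03 to 4.59 in dark N-rich arrays and 4.35 to 4.42 in dark N-absent arrays. In the steady groups it lay at 2.73 to 3.06.

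The 23 members left out by the filter were tested once without it, over 22746 probe sets. In Col-0 4 of the 23 then passed as higher in the dark, beside 27.4% of all probe sets. The largest was 244924_at, with 2.87, 3.57 and 3.03 in Col-0 dark arrays, against 2.28, 2.23 and 2.23 in Col-0 light arrays (0.91 ± 0.15, adjusted p = 5.3e-06, limma). The other 3, 244916_at, ccb203 and matR, differed by 0.04 to 0.22, close to the lowest value.

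In SALK_070989 5 of the 23 passed as higher in the dark without the filter, beside 26.6% of all probe sets. Probe set 244924_at had 2.46, 3.43 and 2.23 in SALK_070989 dark arrays, against 2.23 in each light array (0.48 ± 0.15, adjusted p = 0.0094, limma). The complex I subunit nad7 (244925_at) had 2.65, 2.94 and 2.93 in SALK_070989 dark arrays, against 2.23, 2.57 and 2.57 in SALK_070989 light arrays (0.38 ± 0.06, adjusted p = 2.3e-06, limma). One of these light arrays lies at the table's lowest value, and the other 2 at the value that nad7 has in 32 of the 46 arrays, so the size of this difference is not well measured. The remaining 3, 244910_s_at, 244914_at and ccb203, differed by 0.07 to 0.21. Between dark N-rich and dark N-absent SALK_070989 shoots, 244904_at was lower (-0.53 ± 0.17, adjusted p = 0.032), beside 9.03% of all probe sets. For the genotype difference in the response to darkness, 1 of the 23 passed without the filter. The largest size among the 23 was 0.43, and the direction of the 1 that passed is not given here.

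The mitochondrial cox1 outside the block was higher in the dark than in the light too. Of 16 such probe sets outside the block that could be named, 4 passed the filter, those of cox1, nad5, nad9 and ccb452, and 3 of these only through dark groups. The other 12 were not tested. All 4 were higher in the dark in both genotypes, beside 37.5% of all tested probe sets in SALK_070989 and 38.1% in Col-0, and for the 3 kept through dark groups the filter in part fixes this. The catalytic cytochrome c oxidase subunit cox1, which the filter kept without the dark groups, was 1.94 ± 0.20 higher in SALK_070989 (adjusted p = 9.6e-11, limma) and 2.70 ± 0.20 higher in Col-0 (adjusted p = 1.5e-14, limma). Its difference between the genotypes, -0.76 ± 0.29, did not pass (adjusted p = 0.18). The light arrays were themselves low for cox1 against the steady arrays. Its light minus steady difference was -1.56 ± 0.20 in SALK_070989 (adjusted p = 1.3e-05, limma) and -1.51 ± 0.20 in Col-0 (adjusted p = 1e-05, limma). For cox1, dark was not tested against steady. The complex I subunits nad5 and nad9 were 1.40 and 1.22 higher in SALK_070989, and 1.84 and 1.93 higher in Col-0. In the dark N-rich groups of Col-0, nad5 (-0.74), 1 of the 3 kept through dark groups, and cox1 (-0.85) were lower than in the dark N-absent groups.

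Of the tested nuclear genes of the respiratory chain and the ATP synthase more were lower than higher in darkness. Of 21 tested probe sets for nuclear subunits of the respiratory chain and the ATP synthase, 13 were lower and 4 higher in the dark in each genotype, with median differences of -0.40 in SALK_070989 and -0.49 in Col-0. Of all tested probe sets 36.7% were lower in SALK_070989 and 38.2% in Col-0. The soluble electron carrier CYTC-2 had dark minus light differences of -1.96 in SALK_070989 and -1.99 in Col-0. Those of the cytochrome c1 gene AT3G27240 were -1.38 in SALK_070989 and -1.57 in Col-0, and those of the ATP synthase delta subunit gene AT5G47030 were -1.07 and -1.23. Between the genotypes none of the 21 differed in the dark, and none in the response to darkness. Of 3 tested genes of alternative respiration, the type II NAD(P)H dehydrogenases NDC1 and NDB2 were lower in the dark in both genotypes, with differences of -1.83 and -0.80 in SALK_070989 and of -2.18 and -0.96 in Col-0. NDB1 did not pass between dark and light. Neither of 2 tested genes of mitochondrial DNA and RNA handling, OSB1 and AT5G46920, passed there either. Both of these 2 were lower in SALK_070989 than in Col-0 dark N-absent shoots, with a median difference of -0.54. Beside them 20.1% of all tested probe sets passed in either direction.

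Plastid genes are the other organelle RNAs on the array. Of 66 tested, 7 were higher and 12 lower in the dark in SALK_070989, with a median of -0.04, beside 37.5% of all tested probe sets higher and 36.7% lower. In Col-0 37 were higher and 6 lower, with a median of 0.56, beside 38.1% of all tested probe sets higher and 38.2% lower. Between the genotypes in the dark 3 were lower and 0 higher in SALK_070989, beside 1.15% of all tested probe sets lower. The response to darkness differed past the threshold for 0 of 66, beside 1.38% of all tested probe sets lower in SALK_070989. The median of this genotype difference was -0.865 for the plastid probe sets and -0.951 for the 8 members of the block. It was -0.576 for the 4 mitochondrial probe sets outside the block and 0.01 for all tested probe sets. In the dark N-rich groups 18 of 66 were lower than in dark N-absent groups in SALK_070989 (15% of all tested probe sets), and 23 in Col-0 (9.6%), with 0 higher in each. What organelle RNAs share in these groups besides the treatment, such as their tails, was not tested.

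Members of the block varied together to different degrees. Over all 46 arrays the highest correlation between members was that of AT2G07751 with 244921_s_at, at r = 0.80, and r = 0.76 remained after group means were taken out. The first probe set of the block and 244906_at had r = 0.79, and 0.37 within groups. The lowest was that of 244906_at with 244921_s_at, at r = -0.07. These values describe points that share an array and its normalization.

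Outside the block, the 5 kept probe sets most like the mean of the 8 members were picked by Pearson correlation over the 46 arrays. They were cox1 (r = 0.86, and 0.63 within groups), the plastid gene petN (0.84 and 0.73), the unnamed 265228_s_at (0.83 and 0.77), 244959_s_at (AT2G07708, 0.83 and 0.79) and 250539_at (AT5G08560, 0.78 and 0.40). Of these 5, cox1 is mitochondrial and petN plastid, and AT2G07708 and AT5G08560 are nuclear loci in the annotation.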

How the data were processed

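Shoot RNA was hybridised to 46 Affymetrix arrays. The authors deposited 1 table of log2 values per probe set and, per the submitters' processing notes, used GCRMA to make it. The sources used here do not give its version or whether the arrays were processed together. The log2 scale was inferred from the range, 2.23 to 14.63. Features without signal receive almost the same GCRMA value, and 26.4% of all values lie within 0.01 of the lowest, so a difference against a group there is a lower bound. Arrays have no read depth; their number limits the precision.

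After leaving out 64 AFFX controls, 14288 probe sets with a highest group mean above 4 were tested with R 4.3.3 and limma 3.58.1. The fit had 16 group means, 30 residual and 4.97 prior degrees of freedom, and 21 contrasts, with eBayes and Benjamini-Hochberg adjustment over all 14288 calling values under 0.05. A value behind ± is a standard error unless it is called SD. The code was tested on simulated data. Figures used python 3.11.15, pandas 2.3.3, numpy 2.4.6 and matplotlib 3.10.9.

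Names came from the platform annotation and the TAIR10.1 gene table, whose coordinates were not used because the files name no build. Organelle lists were formed by gene symbol. The annotation names 21 of 40 nuclear respiratory genes, 5 of 13 genes of alternative respiration and 7 of 25 of DNA and RNA handling. The block has id numbers 244901 to 244931. It and the lists were chosen with earlier results of these data known. Every member of the block is accounted for, and those past the threshold with the filter are named with their arrays. Of each list at most the 4 with the smallest adjusted p are named, and of other probe sets WRKY1 and the 5 most like the block. Alternatives were no filter, a filter at 6, quantile normalization, a trended and robust prior, a replicate block, only the compared groups, and each array left out.

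Same-numbered arrays of different groups within an experiment correlated in their deviations from the group means at -0.27 to 0.49, above 0.1 in 14 of 67 pairs, 10 of them in the nitrogen experiment. Every pair exceeded 0.1 for 2 comparisons, Col-0 N-rich with Col-0 N-absent (0.126 to 0.155) and SALK_070989 N-absent with Col-0 N-absent (0.136 to 0.485). There the numbers count as pairs by the data, and the replicate block changed neither count of members. Elsewhere they were not taken as pairs.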

Additional observations from a re-analysis of the deposited data

Results flagged for a closer look

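The response to darkness differed between the genotypes at 2 of the 8 tested probe sets of the block, by a test of the difference itself. Both were lower in SALK_070989, where 1.38% of all tested probe sets passed as lower. Without the filter, 1 of the 23 that it left out passed, in a direction not given here, and the largest size among the 23 was 0.43. For 244920_s_at (AT2G07751) the SALK_070989 minus Col-0 difference of the dark minus light differences was -2.05 (log2 scale), and for 244921_s_at it was -1.84. Both probe sets carry the s_at suffix, and their values correlate at r = 0.80 over the 46 arrays, so they may not be separate observations. In both, the Col-0 light arrays lay below the Col-0 steady arrays. With the steady groups in place of the light groups the values were -1.41 (adjusted p = 0.019, limma) and -1.19 (adjusted p = 0.12, limma), and only the first passed. Against the light groups, the call of 244921_s_at was lost in 6 of 12 fits with 1 array left out.

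A signal also appeared in a probe set that the filter left out. Probe set 244924_at was 0.91 higher in Col-0 dark than in Col-0 light arrays, where it was at or near the table's lowest value. In the SALK_070989 dark arrays it had 2.46, 3.43 and 2.23. In the arrays of the steady, nitrogen and combined experiments, and in the light groups, it did not exceed 2.28.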

How the results depend on the processing

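Counts of members that passed moved by more than 1.5 times in some settings. Without the filter they were 0 for the mean SALK_070989 minus Col-0 difference, 1 for dark N-rich minus dark N-absent in Col-0, and 7 of 31 for dark minus light in SALK_070989. Of 24 calls of members, 18 held without the filter and 6 were lost, each named in the text above; where a count stayed the same the members could differ, as for dark N-rich minus dark N-absent in SALK_070989 (244904_at in place of orfX). With the filter at 6 the counts were 1 for SALK_070989 minus Col-0 in the dark, 1 and 4 for dark minus light in SALK_070989 and Col-0, 1 for its genotype difference, and 0 for dark N-rich minus dark N-absent in SALK_070989; this filter leaves fewer members to test. Quantile normalization gave 0 for the mean difference, and of the 24 calls of members 22 held and 2 were lost. With it, dark minus light stayed at 3 in SALK_070989 and 8 in Col-0. Fits of the compared groups alone gave 0 for SALK_070989 minus Col-0 in the dark, the mean difference, dark N-rich minus dark N-absent in SALK_070989 and in Col-0, and light minus steady in SALK_070989; they estimate the spread from fewer arrays. With steady in place of light, chosen after the data were seen, dark gave 5 in Col-0 and 1 for the genotype difference, and nad4 turned to -0.41 in SALK_070989 and -0.24 in Col-0. A replicate block gave 2 for dark N-rich minus dark N-absent in SALK_070989 and ended no call of a named member. The margin of 0.1 moved the probe sets at the lowest value in every array to 9 (6 at 0.01), exactly 1.5 times. The trended, robust prior changed no call of a named member. With 1 array left out, counts ran over 1 to 3 for SALK_070989 minus Col-0 in the dark, 0 to 3 in dark N-absent, 0 to 3 for the mean difference, 1 to 2 for the genotype difference in darkness, 0 to 3 in SALK_070989 and 0 to 2 in Col-0 for dark N-rich minus dark N-absent, and 0 to 1 for its genotype difference; dark minus light in Col-0 stayed at 8. The causes were not tested unless stated. With 2 or 3 arrays a group, and many members at the lowest value, small changes would not be seen.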
